A study of Mus musculus with 2 samples.

Results

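The oxidative phosphorylation genes described here are the nuclear genes for the respiratory chain complexes I to IV and for ATP synthase, also called complex V. They were taken by name: a probe set was included if its single platform gene symbol begins with Ndufa, Ndufb, Ndufc, Ndufs, Ndufv, Uqcr, Cox4, Cox5, Cox6, Cox7, Cox8 or Atp5, or is Sdha, Sdhb, Sdhc, Sdhd or Cyc1. This rule took 180 of 45101 probe sets, which belong to 91 of 18193 genes. Of the 91 genes, 34 were assigned to complex I, 4 to complex II, 9 to complex III, 17 to complex IV and 17 to complex V. The remaining 10 are not subunits, namely 8 complex I assembly factors (Ndufaf genes), the complex IV subunit paralogue Ndufa4l2 and the supercomplex factor Cox7a2l. Ndufa4 was placed in complex IV, where it is now known to sit. Another 10 probe sets name such a gene together with a second gene, among them those for Ndufa11, Ndufs6 and the bright ones for Ndufb4, and were left out. Cox7b was not analysed here.

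The samples were 2 pools of pancreas RNA from male offspring of C57BL/6J females, an inbred laboratory strain, at an age of 10 weeks. In the control group the mothers ate control diet in pregnancy, and in the methionine-deficient group that diet was short of methionine, which animals must take from food and which also supplies methyl groups. Both groups of offspring ate control diet from weaning at 3 weeks and were not themselves treated. Each pool was hybridised to 1 array, so the groups hold 1 value each, no test was possible, and every value below is a single value. The number of mice and litters in a pool is not given in the sources used here. As pools of a whole organ, they do not tell fewer cells of a type apart from less RNA per cell. Of 7 acinar markers 3 were higher and 4 lower; the enzyme genes were near the top of the intensity range in both pools, such as Cpa1, a carboxypeptidase of the digestive juice, at 168872 and 170196 (log2 difference 0.01), and the transcription factor genes were Ptf1a at 15390.5 and 12350 (-0.32) and Rbpjl at 4659 and 3950 (-0.24). Where a gene is given with a pair of intensities, here and below, control comes first and methionine-deficient second.

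Oxidative phosphorylation makes most of the ATP of a cell. Complexes I and II take electrons from NADH and succinate and pass them by way of ubiquinone to complex III, cytochrome c and complex IV, which hands them to oxygen. Complexes I, III and IV pump protons across the inner mitochondrial membrane, and ATP synthase uses their return to make ATP. Acinar cells spend much of it on making digestive enzymes, and in beta cells the ATP made from glucose closes potassium channels and so sets off insulin release. Part of complexes I, III, IV and V is encoded in mitochondrial DNA. No probe set with a single gene symbol had one that begins with mt-, and other names for these genes were not searched.

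Promoter sequences were looked up first, since the nuclear genes of these complexes are known as targets of the transcription factors NRF1, GABP (an ETS factor) and YY1. RefSeq promoter windows of GRCm38.p6, from 250 bases before to 50 bases after a start site, were matched for 74 of the 91 genes and gave 79 windows. The motifs searched on both strands were a 10-base motif for NRF1, with 1 free base inside it, CCGGAAG for GABP and AANATGGC for YY1. At least 1 of them was found in 47 of the 79 windows (59.5%), against 17.4% of all 32851 windows of the table and 21.4% of the 21262 windows of protein-coding genes. The NRF1 letters were in 22.8% of the member windows and 4.6% of all windows, the GABP letters in 24.1% and 8.86%, and the YY1 letters in 21.5% and 6.05%. Member promoters were also richer in G and C (median 59% against 52.7% of bases). Among protein-coding windows with a GC content between the quartiles of the member windows, 27.5% held a motif, against 25 of 42 member windows in that range. By complex, a match was found in 20 of 33 windows of complex I, 3 of 3 of complex II, 3 of 5 of complex III, 3 of 12 of complex IV and 13 of 18 of complex V. YY1 letters were in 11 of the complex I windows and in 4 of complex V, and in none of the windows of complexes II, III and IV. A match describes letters only and was not tied to binding.

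**Figure D1:**
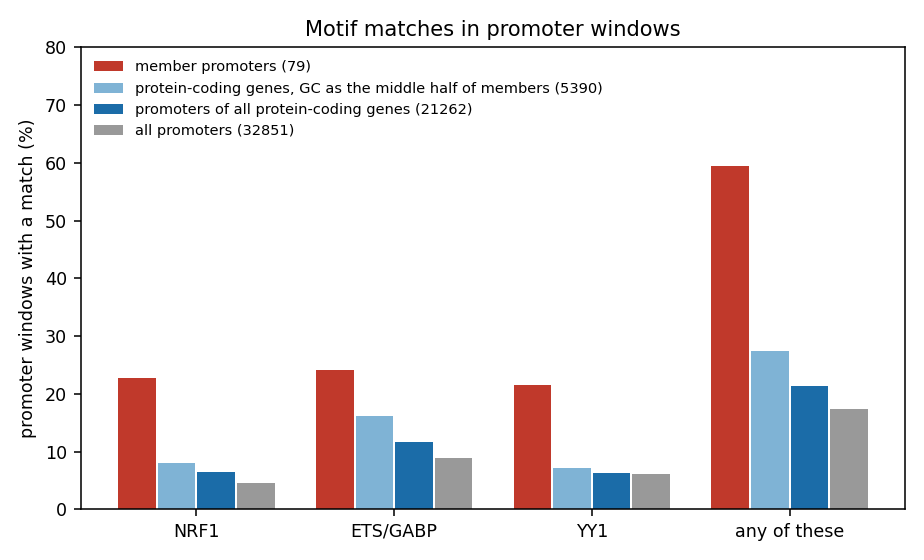
Share of promoter windows (vertical axis, percent) that hold the NRF1, ETS/GABP or YY1 letters or any of them, for the 79 windows of oxidative phosphorylation genes (red), for protein-coding windows of similar GC content (light blue), for all protein-coding windows (dark blue) and for all windows (grey). Any motif was found in 59.5% of member windows and 17.4% of all windows.

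The 150 bases before the start site are shown for the 3 genes of complex V with the lowest differences below and for 2 genes with a higher value, Atp5h and Sdhd. Each reads 5′ to 3′ along the gene, in lower case, with motif matches in capitals. They lie at chr19:47090648-47090797 (minus strand) for Atp5md, chr10:128083157-128083306 (plus strand) for Atp5b, chr2:10080433-10080582 (minus strand, 1 of 2 windows) for Atp5c1, chr11:115419920-115420069 (minus strand) for Atp5h and chr9:50603850-50603999 (minus strand) for Sdhd, all in GRCm38.p6 from RefSeq.
Atp5md: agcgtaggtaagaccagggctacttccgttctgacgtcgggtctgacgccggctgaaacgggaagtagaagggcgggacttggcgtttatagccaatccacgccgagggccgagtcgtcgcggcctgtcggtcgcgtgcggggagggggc
Atp5b: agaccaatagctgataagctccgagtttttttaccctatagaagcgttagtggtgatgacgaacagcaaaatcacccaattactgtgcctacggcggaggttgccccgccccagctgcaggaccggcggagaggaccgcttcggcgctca
Atp5c1: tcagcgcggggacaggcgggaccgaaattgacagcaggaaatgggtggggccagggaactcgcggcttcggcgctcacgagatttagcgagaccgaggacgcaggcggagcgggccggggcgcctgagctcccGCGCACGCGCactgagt
Atp5h: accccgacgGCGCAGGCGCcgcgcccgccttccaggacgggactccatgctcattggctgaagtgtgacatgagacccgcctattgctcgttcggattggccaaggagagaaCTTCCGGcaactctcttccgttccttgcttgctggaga
Sdhd: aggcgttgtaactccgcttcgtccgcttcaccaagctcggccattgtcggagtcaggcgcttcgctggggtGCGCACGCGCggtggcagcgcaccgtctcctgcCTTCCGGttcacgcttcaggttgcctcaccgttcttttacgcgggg
The 10-base capitals are NRF1 letters, and CTTCCGG is the GABP motif read on the other strand. Atp5md and Atp5b have no match in the stretch printed, and each has 1 in the bases just after the start site, a GABP match in Atp5md and a YY1 match in Atp5b. Genes with and without a match had close differences between the pools: the 45 genes past the level filter with any motif had a median log2 difference of -0.03 and the 24 without one -0.02. By motif, the medians with and without it were -0.04 and -0.02 for NRF1 and -0.05 and -0.02 for YY1. For GABP they lay on opposite sides of 0, at 0.01 (10 of 19 genes higher) and -0.04 (19 of 50 higher).

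Most subunit genes of all 5 complexes had close intensities in both pools. Differences are given as log2(intensity + 1) in the methionine-deficient pool minus the control pool, and the value of a gene is that of its brightest probe set. A gene passed the level filter if the mean log2 level of that probe set reached the median of the arrays, an intensity of 150.3, which 85 of the 91 genes did. Over these 85 the median difference was -0.03, and 35 genes were higher and 50 lower in the methionine-deficient pool. The counts were 41 and 44 with quantile scaling and 39 and 46 with loess scaling. Once the median of each array was subtracted they were 24 and 61, and the median of all genes then moved to -0.05. Without rescaling, all 11848 genes past the filter had a median of 0.00 to 2 decimals, with 5924 higher and 5924 lower. A difference of at least 1.5-fold was found for 1 member on the higher side (Ndufb1) and for 2 on the lower side (Cox4i2 and Atp5md), or 3 of 85, while 19.4% of all genes past the filter reached that size in either direction (10.4% higher, 9% lower). No member reached 2-fold, against 6.68% of all genes.

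The members are mostly bright genes, and bright genes scatter less on these arrays. Of the 85 members, 74 lay in the brightest of 5 equal bins of level among probe sets past the filter, with a mean intensity above 1522. In the brightest bin, 1 of 74 members reached 1.5-fold, on the lower side, against 2.4% of all 2791 genes there (1.18% higher, 1.22% lower). At a smaller size, a log2 difference of 0.32, 2 bright members were higher and 5 lower, against 13.6% of those genes (6.23% higher, 7.35% lower). Of these bright members 32 were higher and 42 lower (median -0.02), beside 44.8% higher and 55.2% lower among all genes of the brightest bin (median -0.02). The robust SD over genes was 0.15 for these members and 0.19 for all genes of the brightest bin. Between the quartiles of the members' level, intensities of 3686 to 13457, it was 0.17 for 43 members and 0.15 for 816 other genes. Both the spread and the split of directions of the members were near the background of equally bright genes.

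**Figure D2:**
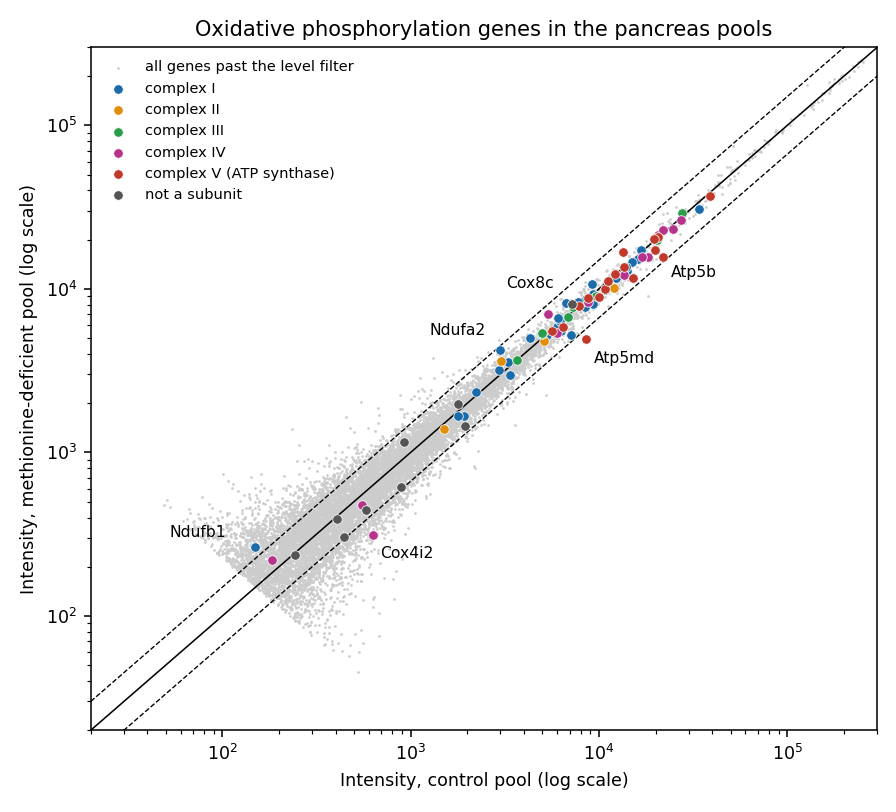
Intensity of each gene's brightest probe set in the control pool (horizontal axis, log scale) and the methionine-deficient pool (vertical axis, log scale). Grey points are the 11848 genes past the level filter, coloured points the 85 oxidative phosphorylation genes, the solid line equality and the dashed lines 1.5-fold; Atp5md, Cox4i2 and Ndufb1 lie outside the dashed lines.

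The error given for a single difference is the probe-set spread, a robust SD of the log2 difference between probe sets of 1 gene at similar level, which covers probe noise on these 2 arrays and neither mice nor arrays. It was 0.18 in the brightest bin and 0.28, 0.41, 0.59 and 0.78 in the 4 dimmer ones. Of the 74 members in the brightest bin, 7 differed by more than 2 such spreads (0.35), against 300 of the 2791 genes there (10.7%). They were Ndufa2 and Cox8c on the higher side and Atp5md, Atp5b, Ndufv1, Ndufaf4 and Atp5c1 on the lower side.

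Complex I takes electrons from NADH through a hydrophilic arm and pumps protons through a membrane arm. Of its 33 genes past the filter 15 were higher and 18 lower (median -0.02), and 30 of them differed by less than 0.32. By part of the complex, the NADH-oxidising module had 4 of 9 genes higher (median -0.03), the ubiquinone module 1 of 5 (median -0.05) and the membrane arm 9 of 18 (median 0.02). Control intensities of the 33 ranged from 149.5 to 34169, with a median of 6710, and those in the methionine-deficient pool from 266 to 30955, with a median of 6648.

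Among the core subunits measured here, which carry the flavin and the iron-sulfur clusters or bind ubiquinone, 5 of 6 were lower (median -0.10). The accessory subunits had 13 of 27 lower (median 0.02). Of all genes in the brightest bin, 55.2% were lower. Ndufv1, which binds NADH and the flavin, had intensities of 7099 and 5235, the lowest difference in the complex (log2 difference -0.44). Its other 2 probe sets were slightly higher, at 0.09 and 0.05. Ndufv2, an iron-sulfur subunit beside it, had 7738 and 8291 (0.10), with all 3 probe sets higher. Ndufs1, which carries several iron-sulfur clusters, had 1787 and 1662 (-0.10). Of the ubiquinone-side core, Ndufs3 had 5284 and 5191 (-0.03), Ndufs7 had 6261 and 5537 (-0.18) and Ndufs8 had 12375 and 11631 (-0.09). The log2 differences of these 3 brightest probe sets were within about 1 probe-set spread. The second probe set of Ndufs7 gave 0.07, and the 6 of Ndufs8 ran from -0.25 to 1.04.

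The highest and lowest of the accessory subunits were mostly small differences. Ndufa2, a small subunit of the NADH module, had 2983 and 4203 and was the highest of the bright complex I genes (1.41-fold, log2 difference 0.49, read by 1 probe set). Ndufa7, an accessory subunit of the hydrophilic arm, had 6710 and 8172 (0.28), but its 5 probe sets ran from -0.23 to 0.28. Ndufb1, of the membrane arm, was the only member at least 1.5-fold higher, at 149.5 and 266 (1.77-fold, log2 difference 0.83). It lay at the edge of the level filter, where the probe-set spread is 0.78. In that dimmest bin 522 of 1973 genes were at least 1.5-fold higher. Ndufb5, of the membrane arm, had 9282 and 8045 (-0.21) and a second probe set at 0.33. Ndufs4, needed for a stable NADH module, had 1923 and 1674 (-0.20), and its other probe sets lay between -0.13 and 0.57. The probe sets with the strongest signal in the complex, those of Ndufa1 and Ndufb9 in the membrane arm, gave -0.14 and 0.04. Ndufab1, the mitochondrial acyl carrier protein, which also serves fatty acid synthesis, had 6225 and 6379 (0.04).

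**Figure D3:**
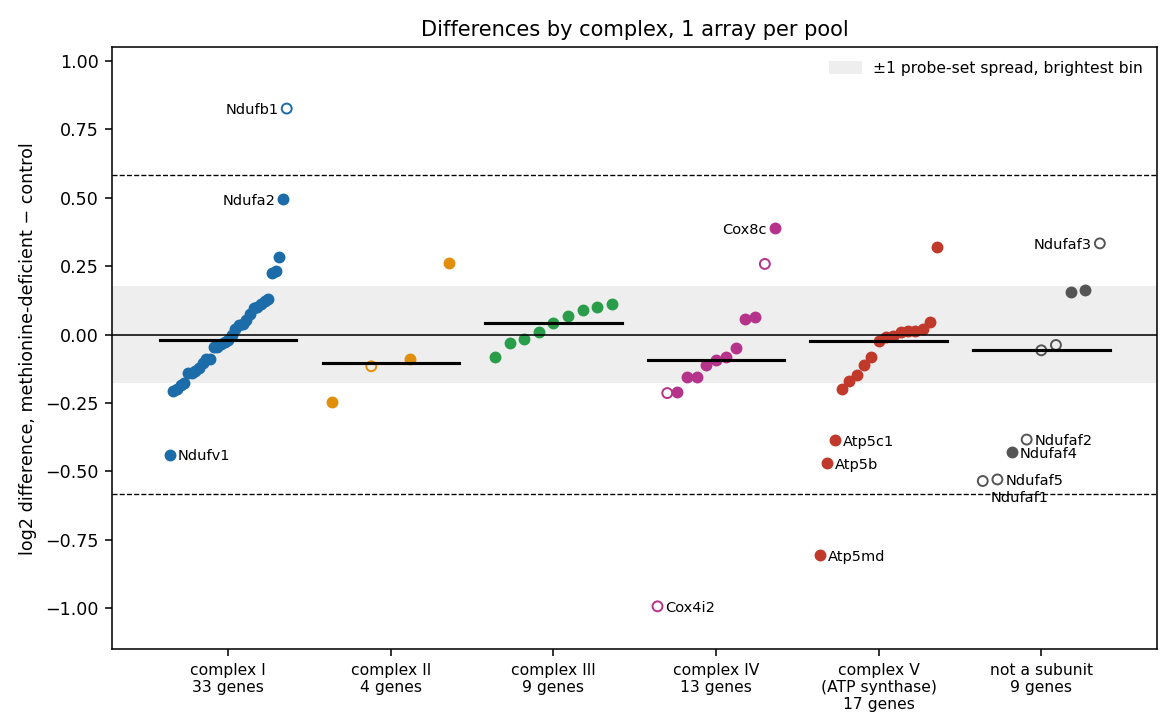
Log2 difference (methionine-deficient minus control, vertical axis) of each oxidative phosphorylation gene past the level filter, by complex; black bars are medians, filled points lie in the brightest bin and open points below it. The grey band is 1 probe-set spread of the brightest bin (0.18 either way) and the dashed lines are 1.5-fold; complex III lies wholly within the band and complex V has a tail of 3 lower genes.

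Complex II, which links the citric acid cycle to the chain and has no subunit from mitochondrial DNA, had 1 of 4 genes higher and a median of -0.10. Of the catalytic subunits, Sdha, the flavoprotein, had 5127 and 4818 (-0.09), with a second bright probe set at 0.13, and Sdhb, the iron-sulfur subunit, had 12076 and 10175 (-0.25). The membrane anchors went apart. Sdhc had 1510 and 1394 (-0.12), and its second probe set, at 793 and 1637, gave 1.04. Sdhd had 3033 and 3631 (0.26), and its second probe set gave 0.31. With such probe sets the median of the complex turned to 0.15 when all probe sets of a gene were averaged and to 0.31 over second probe sets alone.

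Complex III had the narrowest range of the complexes, from -0.08 to 0.11, with 6 of 9 genes higher and a median of 0.04. The catalytic subunits were Cyc1, which carries the heme that passes electrons to cytochrome c, at 4973 and 5369 (0.11), and Uqcrfs1, the Rieske iron-sulfur protein, at 6818 and 6738 (-0.02). The core proteins Uqcrc1 and Uqcrc2 had 9606 and 9067 (-0.08), and 4964 and 5321 (0.10). The small subunits, needed for a stable dimer, included Uqcrb at 27630 and 28941 (0.07), Uqcrh at 20197 and 20819 (0.04), Uqcrq at 20240 and 19813 (-0.03), Uqcr10 at 3672 and 3700 (0.01) and Uqcr11 at 7239 and 7707 (0.09). All 9 differences of the brightest probe sets were smaller than the probe-set spread of 0.18, but second bright probe sets gave 0.31 for Uqcrc2, 0.23 for Uqcrh and -0.15 for Uqcrb. The median of the complex was 0.23 over second probe sets and -0.017 with probe sets averaged. It was -0.0082 after each array's median was subtracted, on the other side of 0.

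Complex IV, cytochrome c oxidase, has its catalytic core in mitochondrial DNA, surrounded by the nuclear subunits measured here. Of its 17 genes 13 passed the filter, with 4 higher, 9 lower and a median of -0.09. Among all genes past the filter, 50% were lower. The 9 common subunits past the filter, all in the brightest bin, ranged from -0.21 to 0.06, with 7 lower. In that bin 55.2% of all genes were lower. Cox6c, at -0.21, had a second bright probe set at 0.45. Cox4i1, which binds ATP as a regulatory subunit, had 24660 and 23120 (-0.09). Cox5a had 16993 and 15728 (-0.11), but its other bright probe sets gave 0.06 and 0.20. Cox5b, which binds zinc, had 13576 and 12190 (-0.16), with 4 probe sets between -0.17 and 0.02. The strongest signal in the complex, that of Cox7a2, was 27408 and 26518 (-0.05). Ndufa4 had 8799 and 8320 (-0.08). Cox6a1 and Cox6b1, at 0.06 and 0.06, were the higher 2, and their second bright probe sets gave -0.08 and -0.20.

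The isoforms that other tissues use in place of the common subunits were dim or unclear. Cox4i2, the lung and hypoxia isoform of Cox4, had 628 and 315 (1.99-fold lower, log2 difference -0.99, probe-set spread 0.41, 1 probe set), beside -0.09 for Cox4i1. Of the 2320 genes in its bin of level, 228 were at least 1.5-fold lower. Cox6a2, the heart and muscle isoform, had 553 and 477 (-0.21) in one probe set and 390 and 138 (-1.49) in the other, beside 0.06 for Cox6a1. The muscle isoforms Cox7a1, at 27.9 and 62.5, and Cox8b, at 17.3 and 82.0, and the testis isoform Cox7b2, at 7.08 and 31.7, were below the filter, where background can set the value. Of 10 skeletal muscle markers 1 passed the filter (Ckm, log2 difference -0.65), and the markers summed to 731 and 862. Of 5 brown adipocyte markers 2 passed (Ppargc1a at -0.47 and Dio2 at 0.06), Ucp1, the uncoupling protein that defines these cells, was below it at 159 and 66.6, and the markers summed to 1299 and 847. Their part in the isoform values was not tested.

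Testis isoforms gave an odd pair of readings. Cox6b2 had 184 and 220 (0.26), near the filter. Cox8c had 5343 and 7000 in its brighter probe set (log2 difference 0.39) and 2096 and 1790 in the other (-0.23). Of 3 sperm markers, Prm2 and Tnp1 were below the filter and Prm1 was at 276 and 542, with a sum of 472 and 649. What the bright Cox8c probe sets bind was not tested. The ubiquitous subunit Cox7c was read only through a pair of probe sets below the filter, at 182 and 63.0 and at 144 and 62.9.

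Complex V, ATP synthase, held the largest bright difference of the members, by the brightest probe set of each gene. Its 17 genes all passed the filter and lay in the brightest bin, with 6 higher, 11 lower and a median of -0.02. Of all genes in that bin 55.2% were lower, with a median of -0.02. Of the 17, 14 differed by less than a log2 size of 0.32, and the other 3 were all lower. At that size or more, 7.35% of all genes in the brightest bin were lower and 6.23% higher. Atp5md, a small membrane subunit also known as DAPIT that helps ATP synthase form dimers, had 8586 and 4911 (1.75-fold lower, log2 difference -0.81, probe-set spread 0.18). Among all genes of the brightest bin, 1.22% were at least 1.5-fold lower. A single probe set reads Atp5md, so no second reading was at hand.

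The other 2 of these 3 lower genes encode parts of the catalytic F1 head. Atp5b, the beta subunit with the catalytic sites, had 21788 and 15732 (1.38-fold lower, log2 difference -0.47). Atp5c1, the gamma subunit that turns as the central shaft, had 15163 and 11602 (1.31-fold lower, -0.39). Atp5a1, the alpha subunit that pairs with beta, had 10774 and 9966 (-0.11), with a second bright probe set at -0.05 and a dim one at 0.59. Atp5d and Atp5e, the delta and epsilon subunits of the shaft's foot, had 0.01 and 0.02. The 5 genes of the head, which are made into 1 assembly, thus ran from -0.47 to 0.02. Atp5b has 1 probe set, and the second one of Atp5c1 was below the filter, at 45.2 and 205.

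The remaining genes of ATP synthase differed less. The 3 genes for the c ring, which turns as protons pass, were Atp5g1 at 5601 and 5515 (-0.02), Atp5g2 at 7854 and 7833 (-0.0038) and Atp5g3 at 38944 and 36820 (-0.08). They encode the same mature protein, and whether their probe sets tell them apart was not tested. In the peripheral stalk, which holds the head still, Atp5pb had 19513 and 20122 (0.04), Atp5o had 19789 and 17257 (-0.20), with a second bright probe set at 0.06, and Atp5j had 9983 and 8877 (-0.17). Atp5h, also of the stalk, was the highest of the complex, at 13380 and 16706 (0.32, just under that size), but its second probe set of similar intensity, at 13068 and 12180, gave -0.10. Of the small membrane subunits other than Atp5md, Atp5j2 had 0.01, Atp5k 0.01, Atp5l -0.0079 and Atp5mpl -0.15.

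Genes taken by name that are not subunits were dimmer. The 8 complex I assembly factors help build the complex but are absent from the finished enzyme. They had 2 higher and 6 lower genes and a median of -0.22, where 50% of all genes past the filter were lower. The median of these factors was -0.11 with probe sets averaged and -0.38 with the level filter at the 75th percentile. It was 0.21 over second probe sets, which only Ndufaf4 and Ndufaf8 have. Ndufaf1 had 889 and 613 (-0.54, probe-set spread 0.28), Ndufaf5 had 442 and 306 (-0.53, spread 0.59), Ndufaf4 had 1947 and 1446 (-0.43, spread 0.18) and Ndufaf2 had 578 and 443 (-0.38, spread 0.41). Ndufaf3 went the other way at 923 and 1163 (0.33, spread 0.28), as did Ndufaf8 (0.16), while Ndufaf6 and Ndufaf7 had -0.04 and -0.06. None of them reached 1.5-fold. The second probe set of Ndufaf4 gave 0.10, and that of Ndufaf8 0.32. Cox7a2l, a factor linked to supercomplexes of complexes III and IV, had 7224 and 8096 (0.16), and its 3 probe sets lay between 0.13 and 0.16. Ndufa4l2, a paralogue induced by hypoxia, was below the filter at 47.1 and 287, as was the only singly named probe set of Ndufb4, at 20.4 and 12.8.

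Where a gene had more than 1 probe set, the readings gave the same direction about as often as not, among members as among all genes. Of the 47 members with 2 or more probe sets past the filter, 22 (46.8%) had the second brightest on the same side of 0 as the brightest, against 52.1% of the 4819 such genes on the arrays. With both probe sets in the brightest bin it was 18 of 38 (47.4%), against 53.1%. In 14 of the 47 genes all probe sets gave the same direction, with 6 all lower and 8 all higher. Of the 13 members that differed by at least 0.32 (4 higher, 9 lower), 10 had a single probe set past the filter, and in the other 3, Ndufv1, Cox8c and Ndufaf4, every other probe set past the filter lay on the opposite side of 0. No member of that size therefore had a second probe set on its own side. That size was reached by 41% of all genes past the filter (21.5% higher, 19.5% lower).

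**Figure D4:**
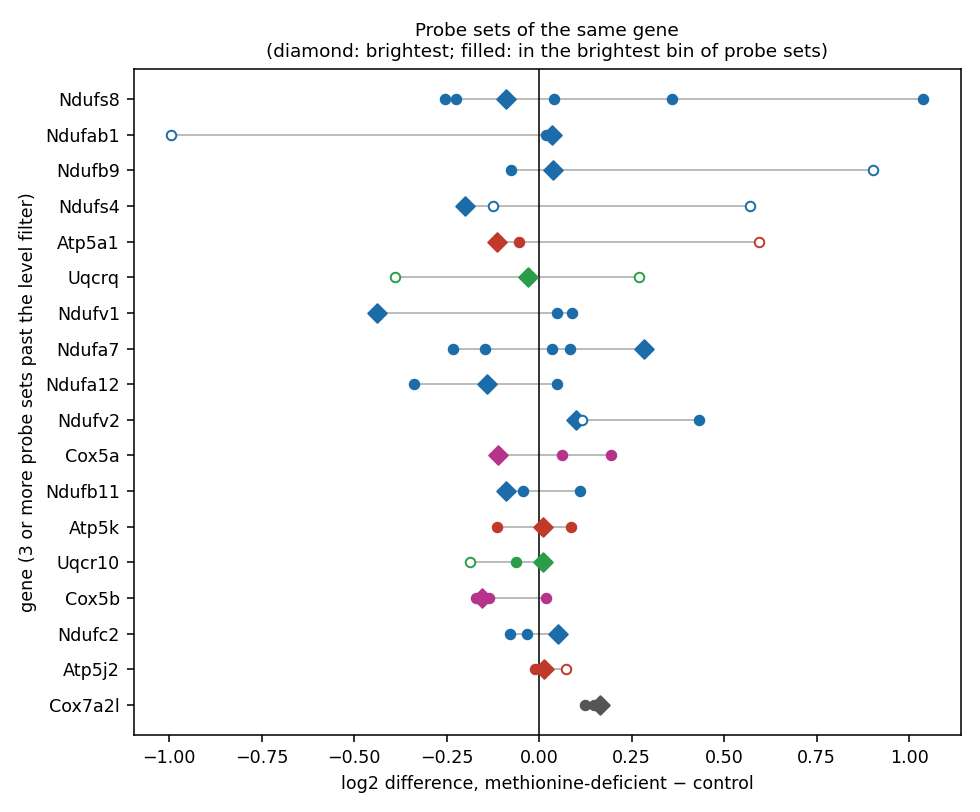
Log2 difference (horizontal axis, methionine-deficient minus control) of every probe set past the level filter, for the 18 genes with 3 or more of them, ordered by range. Diamonds mark the brightest probe set, filled points the brightest bin, and colours the complex as in the plot of differences by complex; Ndufs8 spans 1.29 and Cox7a2l 0.04.

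Ndufs8, a core subunit of complex I, had the widest range of all members. Its 6 probe sets, all in the brightest bin, had log2 differences from -0.25 to 1.04. The one at 1.04 had 2500 and 5137, while the brightest had 12375 and 11631. Ndufab1 had 0.04 and 0.02 in its bright probe sets and -0.99 in a dim one at 314 and 157. Outside complex I, Cox6c, a small subunit of complex IV, had 18155 and 15702 (-0.21) in one probe set and 7056 and 9630 (0.45) in the other, and Cox8a had -0.16 and -0.85, both lower. Which of these probe sets reads the main transcript was not tested.

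Other mitochondrial gene lists were close to 0 as well, apart from the regulators of mitochondrial biogenesis. For each the count past the filter is given, and the background is 50% higher and 19.4% at 1.5-fold or more. The complex assembly factors, which include the 8 Ndufaf genes, had 22 of 44 higher and a median of 0.0078, with 2 at least 1.5-fold higher and 4 lower. The farthest were Lyrm7, a complex III factor, at -1.70 (336 and 103), Sdhaf2, which places the flavin in Sdha, at 0.88, and Cox18 at 0.87. Named after their values were seen, Cox17, the copper chaperone of complex IV, had 6131 and 3833 (-0.68, spread 0.18), while Coa3, another complex IV factor, had 12120 and 10984 (-0.14). Electron carriers and exchange proteins had 9 of 20 higher and a median of -0.01. Cycs, cytochrome c itself, had 12509 and 12341 (-0.02), and the farthest were the ubiquinone synthesis genes Pdss2 at 1.53, Coq7 at -0.49 and Coq6 at 0.37.

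The tricarboxylic acid cycle, which feeds the chain, had 8 of 15 genes higher, a median of 0.04 and none at 1.5-fold. Its farthest members were Dld at -0.35, Idh3b at 0.31 and Idh3g at -0.21. Mitochondrial ribosomal proteins, which make the subunits encoded in mitochondrial DNA, had 35 of 76 higher and a median of -0.04. Mrps9 at 0.65 was the only one at 1.5-fold, followed by Mrpl3 at -0.58 and Mrpl28 at -0.51. Mitochondrial import genes had 12 of 22 higher and a median of 0.0053, with Timmdc1, taken in by its name but a complex I assembly factor, at -0.79, Tomm40l at 0.63 and Timm13 at 0.60.

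Regulators of mitochondrial biogenesis had 3 of 15 genes higher and 12 lower, with a median of -0.16. Ppargc1a, the coactivator PGC-1 alpha, had 515 and 372 (-0.47, spread 0.41), Nrf1 had 542 and 398 (-0.44, spread 0.41), and Esrra, a nuclear receptor that acts with the coactivator, had 937 and 565 (-0.73, spread 0.28). Twnk, the helicase of mitochondrial DNA, had -0.55 and Tfam, which packs that DNA, -0.22, while Gabpb2, a GABP subunit, had 0.89. These genes are of middle level, and only 1 was at least 1.5-fold lower and 1 higher. The direction did not hold over other probe sets: it was 2 of 10 lower with a median of 0.28 over second probe sets, and 7 of 15 lower with a median of 0.07 when probe sets were averaged.

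**Figure D5:**
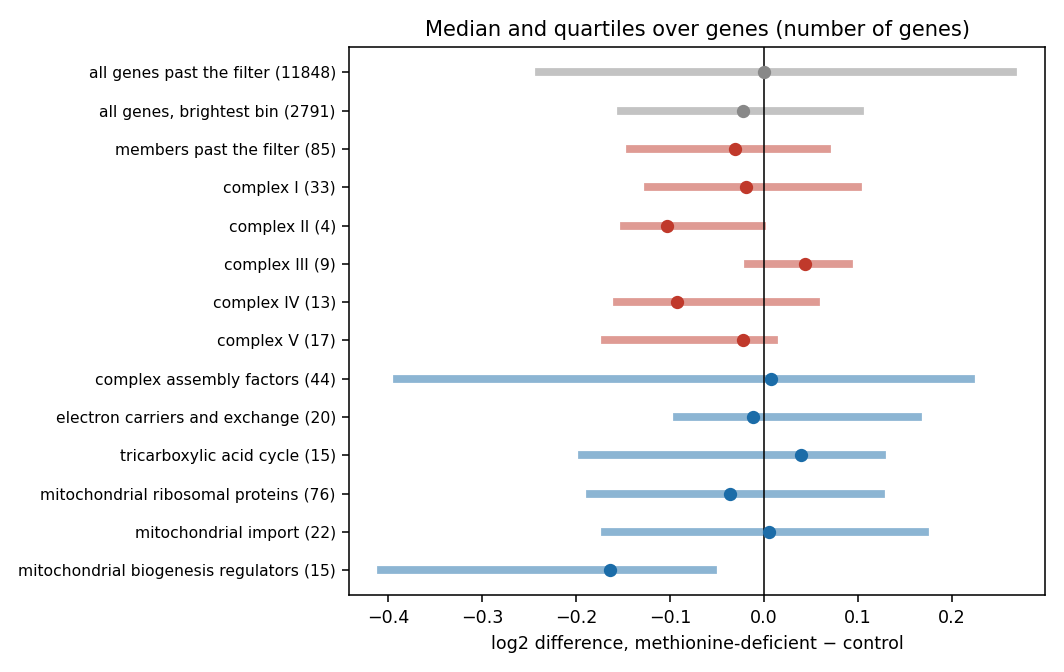
Median (points) and quartiles (bars) of the log2 difference over genes past the level filter (horizontal axis, methionine-deficient minus control), for all genes (grey), the oxidative phosphorylation genes and their complexes (red) and other mitochondrial lists (blue), with the number of genes in brackets. Complex medians run from -0.10 to 0.04, and the biogenesis regulators lie at -0.16.

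Some features of the pools moved beside these values. Of 5 B and plasma cell markers, all past the filter, 4 were lower (sum of 10407 and 5415). Of 4 white adipocyte markers past the filter 3 were lower. The 5 on the array, with Lep below the filter, summed to 16722 and 14383, mostly from Fabp4 at 12966 and 11232 (-0.21, spread 0.18). Of 6 islet markers 3 were higher and 3 lower (sum of 173417 and 181199, with Gcg, the glucagon gene, at 21772 and 28591). The array's control probe sets at the 3′ end of Actb over those at its 5′ end, which track RNA integrity, gave 1.46 and 1.76, and those of Gapdh 0.973 and 1.11. Their part in the differences of oxidative phosphorylation genes was not tested.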

How the data were processed

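The deposited values are linear intensities per probe set of an Affymetrix mouse array, made by the authors from 2 pools of biotin-labelled cRNA prepared with a 3′ IVT kit, per the labels' protocols. How probes were summarised and scaled is not stated there. Both arrays share a 2% trimmed mean of 500.003. Symbols are those of GEO's platform table (2016). The analysis took log2(intensity + 1) without rescaling, used the brightest probe set of a gene and kept genes with a mean level at or above the median (50th percentile) of probe sets that are not array controls. The probe-set spread was taken in 5 bins of level. With 1 array per group nothing was tested; members were counted at 1.5-fold, with all genes as background. The counting and the spread were tested on simulated data. The number of arrays limits the precision. The members, lists, motifs and size thresholds were chosen with earlier results of these data known. Genes named were the 2 brightest, 3 highest and 3 lowest of each complex, its core subunits and isoforms, members that are not subunits, those with disagreeing probe sets and the 3 farthest of each list; the biogenesis regulators Ppargc1a, Nrf1 and Tfam were named after their values were seen. Alternatives were a pseudocount of 16, scaling by the median, by quantiles or by loess, other level filters, other ways to choose a probe set and sizes of 0.32 on the log2 scale and 2-fold. Python 3.11.15 with numpy, pandas and statsmodels was used.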

Additional observations from a re-analysis of the deposited data

How the results depend on the processing

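No paired analysis was possible because each group is 1 pool. With 1 array per group, depth and replicate error are unknown. In the brightest bin every direction below 0.18 lies within probe noise, and in the dimmer bins those below 0.28, 0.41, 0.59 and 0.78. The median of complex I (-0.02) was -0.071 with median centring, 0.015 with quantile scaling, -0.054 without _s_at, _x_at and _a_at probe sets and -0.069 over second brightest probe sets. That of complex II (-0.10) was 0.15 with the mean over probe sets and 0.31 over second ones. That of complex III (0.04) was -0.017 with the mean and 0.23 over second ones. That of complex IV (-0.09) was -0.14 with median centring, -0.18 without those probe sets and -0.15 over second ones, below 0 under all 10 settings, the reported one included. That of complex V (-0.02) was -0.074 with median centring, -0.0062 with quantile scaling, -0.0079 with the mean over probe sets and -0.00021 with loess scaling. It was also below 0 under all 10, but the settings reuse the same 2 arrays. The median of all genes in the brightest bin was -0.02 as well. Median centring moved the median of all genes to -0.05 and the members to 24 higher and 61 lower, and quantile scaling gave 41 and 44. Members at least 1.5-fold higher (1) numbered 5 with no level filter, 0 with the 75th percentile filter, 3 without the named probe sets, 2 over second ones, 4 at a log2 size of 0.32 and 0 at 2-fold. Those lower (2) numbered 4, 1, 2, 2, 9 and 0 in the same order. Members higher (35) numbered 21 of 62 without those probe sets and 23 of 47 over second ones, where 24 were lower. Of the 85 genes, 11 changed sign with median centring, 10 with quantile scaling, 4 with loess, 18 with the mean over probe sets and none with a pseudocount of 16, and 25 of 47 did over second probe sets. Among the last were Ndufv1, Ndufaf4 and Cox8c. Atp5md, Cox4i2 and Ndufb1 each have 1 probe set past the filter, so the choice of probe set could not be tried on them. The median of the complex I assembly factors (-0.22) ran from -0.38 to 0.21. The cause was not tested.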
